A study of Mus musculus with 2 samples.

Results

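The cells described here are 73 of 16430 single-cell barcodes that passed the quality limits, and they carried the transcripts of conventional type 2 dendritic cells at an injured mouse tendon. A barcode passed with at least 500 genes, at least 1000 UMIs (unique molecular identifiers, each standing for 1 captured transcript) and at most 10% mitochondrial UMIs. It was a member with at least 2 UMIs of Cd209a, at least 1 UMI of Flt3 and Zbtb46 together, and at least 50 UMIs per 10000 of the class II genes H2-Aa, H2-Ab1 and Cd74. It could hold at most 1 UMI of Xcr1 and Clec9a together, at most 1 UMI of Ccr7 and under 10 UMIs per 10000 of C1qa and C1qb, which mark type 1 dendritic cells, migrating mature dendritic cells and macrophages. The irradiated library gave 22 members of 7190 kept barcodes, and the control library gave 51 of 9240. The members were thus chosen by the measured UMIs of these genes, whose levels are a description only.

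Conventional type 2 dendritic cells take up antigen in tissues and lymph nodes and present it on class II molecules to CD4+ T cells. They arise in the bone marrow under Flt3 ligand, and Zbtb46 is a transcription factor of the conventional dendritic lineage. Under type I interferon, dendritic cells turn on a large set of antiviral genes, and in inflamed tissue type 2 cells can carry transcripts that they share with monocytes. In the mouse they are commonly recognised by the C-type lectins Cd209a, a relative of human DC-SIGN, and Clec10a and Mgl2, which bind galactose-type sugars.

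Both libraries held unsorted cells from the cut tendon of C57BL/6 males, 8 to 10 weeks old, released with collagenase and dispase and run on the 10x Genomics 3' v3 assay. All mice had a burn over 30% of the body surface and a cut Achilles tendon, after which bone forms in soft tissue, and the site was taken at day 7. The irradiated mice were also given 7 Gy in 1 dose, aimed at the site through a collimator of 2 cm, and the control mice were not irradiated. The labels describe arms of 10 mice, with radiation at postoperative day 1 in some and day 3 in others. The series text points to day 3, in wording that leaves the day uncertain, and the number of mice pooled in a library is not stated. With 1 library per group, irradiation and library cannot be told apart, no test was possible, and every difference below describes these 2 libraries.

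The irradiated library held 8302 barcodes and 111753092 UMIs, and the control library 11369 barcodes and 180080740 UMIs. Kept barcodes had a median of 10198 UMIs in the irradiated and 14017 UMIs in the control library. The members held 230734 UMIs in sum in the irradiated library, with a lowest, median and highest cell of 4347, 9873 and 18620 UMIs. In the control library they held 575612 UMIs, with 1149, 8922 and 60216 UMIs. The median mitochondrial share was 2.55% in irradiated and 2.68% in control members. The libraries shared 32 barcode sequences, and no member carried one of them.

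A gene's level is its UMIs summed over the members of a library and divided by all their UMIs, in CPM (per 1000000 UMIs). Each ratio sets irradiated over control, as a log2 value, with an exact 95% interval for a pair of Poisson counts in parentheses. Shares have exact Clopper-Pearson intervals. These intervals cover counting error only, and the spread between mice was not measured. A gene with at least 20 UMIs over both libraries is named higher, or lower, where it differed by 1.5-fold or more and the interval did not include equality. Over all 5496 such genes the median log2 ratio was -0.10, and 522 (9.5%) were higher and 731 (13.3%) lower.

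Before any ratio is read, 8 of the 51 control members stand apart, and none of the 22 irradiated ones does. These 8 barcodes held at least 20 UMIs, and at least 20 per 10000, of a marker list of fibroblasts, keratinocytes, T and NK cells or endothelial cells. The deepest, with 60216 UMIs, held 2977 UMIs of keratinocyte markers, 304 UMIs of mitosis genes and 2449 of the 2733 control UMIs of Fabp5, a fatty acid binding protein abundant in keratinocytes. Another, with 30948 UMIs, held 2037 UMIs of fibroblast markers. A further one, with 22662 UMIs, held 392 UMIs of T and NK markers, among them all 182 UMIs of Cd3g and all 77 of Trdc, parts of the T cell receptor. They are called mixed barcodes here. The doublet caller Scrublet scored 3 of the 51 control members above 0.25, all of them mixed, and no irradiated member.

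Without the mixed barcodes the control had 43 cells, with 358462 UMIs in sum, a median of 8213 and a highest cell of 14546 UMIs. Of 4228 genes then measured, 313 (7.4%) were higher and 346 (8.18%) lower, with a median of -0.01. The lists of other cell types show how much the mixed barcodes carried. Fibroblast markers summed to 69.3 CPM in irradiated members, against 4281 CPM in all control members and 427 CPM in those that were not mixed. Keratinocyte markers summed to 169 CPM in irradiated members, against 6711 and 695 CPM in the control. T and NK markers were at 0 in irradiated members for all 14 genes, against 778 and 2.79 CPM in the control. All 9 measured fibroblast markers and all 12 keratinocyte markers were lower in the irradiated library, and so were the 3 and 5 that remained measurable without the mixed barcodes. Each leading value below is therefore given with and without them, a choice made after the data were seen.

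**Figure D1:**
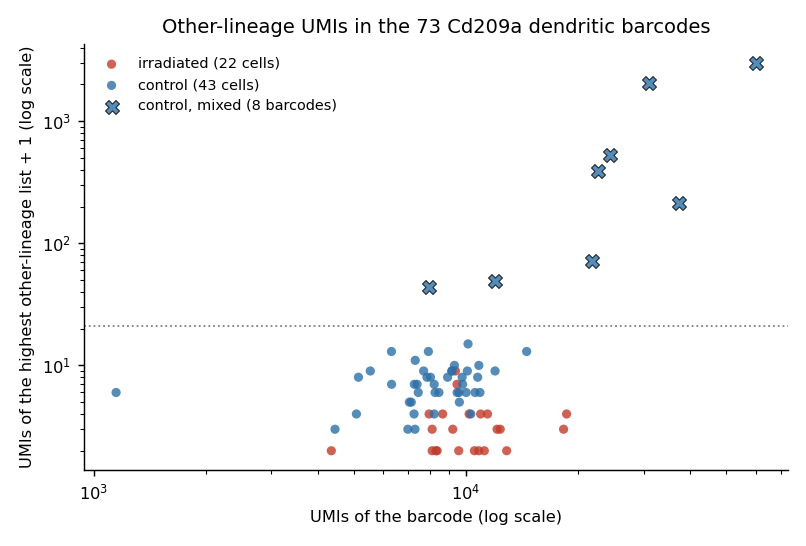
UMIs of each member (x axis, log scale) against the UMIs of its highest marker list of fibroblasts, keratinocytes, T and NK or endothelial cells plus 1 (y axis, log scale), 1 point per barcode. The 8 crosses are the mixed control barcodes, above the dotted line at 20 UMIs, and 6 of them are deeper than every irradiated member.

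Genes of type 2 cells that the rule did not read were captured in both libraries, some in most cells and others in few. Clec10a, a galactose lectin given as a marker beside Cd209a and Flt3, had 65 UMIs in 14 of 22 irradiated cells, against 219 UMIs in 39 of 51 control cells. Mgl2, its neighbour on chromosome 11 and a lectin of the same kind, had 30 UMIs in 4 irradiated cells, against 148 UMIs in 21 control cells. Sirpa, the inhibitory receptor that separates type 2 from type 1 cells, had 47 UMIs in 14 irradiated cells and 80 UMIs in 38 control cells. Napsa, a lysosomal protease, was seen in 21 irradiated and 49 control cells, and Itgam, the integrin CD11b, in 15 and 36. Irf4, a regulator of type 2 cells, was rarely captured, with 6 UMIs in the irradiated and 13 in the control library. Ccl17, a chemokine of some type 2 cells, had no UMI among the 22 irradiated or 51 control members, which allows shares of cells with a UMI of up to 15.4% and 6.98%.

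Set against 3 neighbouring populations, gated with the same quality and class II limits, Clec10a and Mgl2 were among the genes that stood out, and Sirpa, Napsa, Itgam and Irf4 were not. The 12 genes whose level most exceeded the highest neighbour in both libraries were Cd209a, Cd7, Clec10a, Mgl2, Ffar2, Cst7, Trappc5, Wfdc17, Taf4b, Bin2, Pkd1l2 and Pvt1. Cd7, an immunoglobulin-family receptor, stood at 143 CPM in irradiated and 83.4 CPM in control members, and nowhere above 30.1 CPM in the neighbours. Cells that failed on Cd209a alone, described below, were not among these neighbours. They held Cd7 at 54.9 CPM in the irradiated and 40.5 CPM in the control library, and Clec10a at 77.6 and 114 CPM. Wfdc17, a small secreted protein of myeloid cells, stood at 1144 CPM in irradiated and 622 CPM in control members, against 236 to 499 CPM in the neighbours. Ffar2, a receptor for short-chain fatty acids, stood at 121 CPM in irradiated and 86.9 CPM in control members. Irf8, the regulator on which type 1 cells depend, showed the opposite, with 21.7 and 92.1 CPM in the irradiated and control members and 689 and 607 CPM in irradiated and control type 1 cells. Since the gates use these cells, these levels carry no test.

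**Figure D2:**
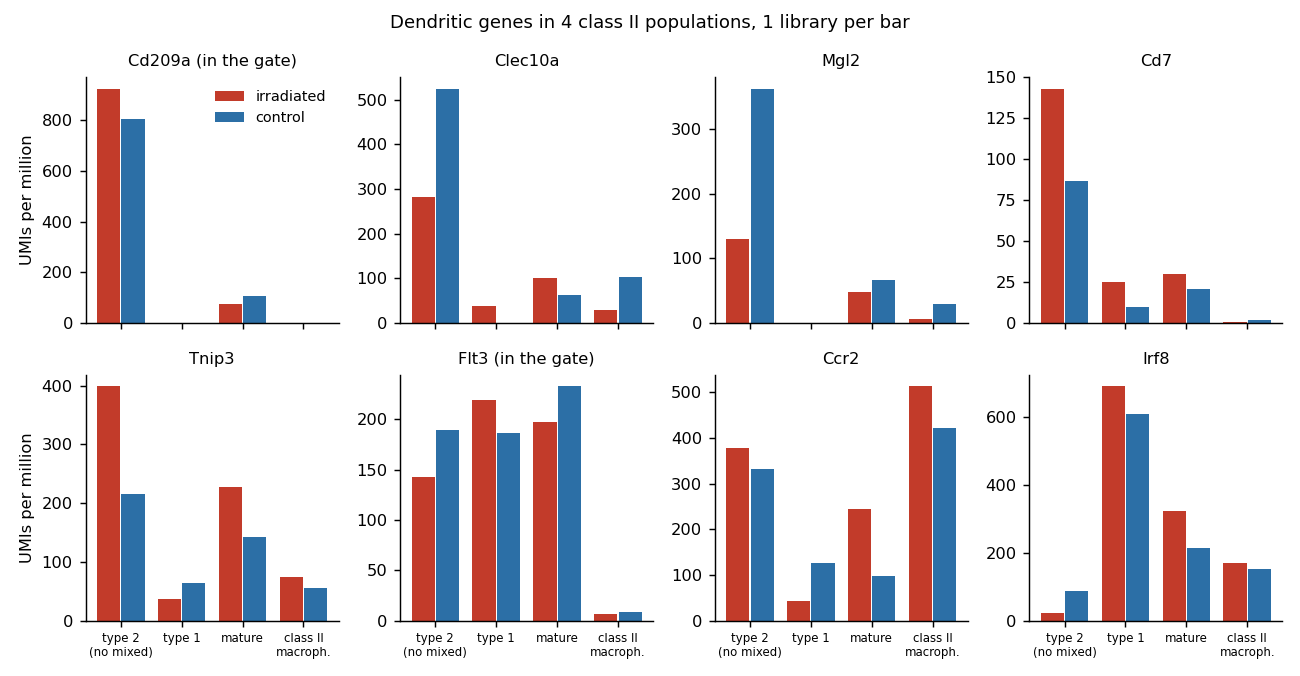
Levels of 8 dendritic genes in CPM (y axes) in type 2 dendritic cells without the mixed barcodes, type 1 dendritic cells, mature dendritic cells and class II macrophages, with the irradiated library left of the control library. Cd209a and Cd7 are highest in the type 2 cells of both libraries, and Irf8 is lowest there.

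The type 2 cells made up a smaller share of the irradiated library. They were 0.306% of kept barcodes in the irradiated library (0.192 to 0.463) and 0.552% in the control library (0.411 to 0.725), a log2 ratio of -0.85 (-1.64 to -0.10). Without the mixed barcodes the control share was 0.465% and the ratio -0.60 (-1.42 to 0.17), an interval that includes equality. Of barcodes with a UMI of the leukocyte gene Ptprc they were 0.497% in the irradiated and 1.43% in the control library, a ratio of -1.52 (-2.31 to -0.78), and -1.28 (-2.09 to -0.50) without the mixed barcodes. Of barcodes past the class II limit they were 1.81% and 5.21% in the irradiated and control libraries, a ratio of -1.53, and -1.28 without the mixed barcodes. The direction was the same over each denominator, and the size was not. Shares add up to a whole, and no count of cells in the tissue was made.

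The neighbouring populations did not all follow. Mature dendritic cells were 75 barcodes (1.04%) in the irradiated and 50 (0.541%) in the control library, a ratio of 0.95 (0.41 to 1.49). Class II macrophages were 593 barcodes (8.25%) in the irradiated and 370 (4.004%) in the control library, a ratio of 1.04 (0.85 to 1.23). Type 1 dendritic cells were only 11 irradiated and 18 control barcodes, a ratio of -0.35 (-1.58 to 0.81). The gate for type 2 cells leaves out cells with Ccr7, so a type 2 cell that has matured counts among the mature cells.

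Interferon-stimulated genes were the list with the most members higher in irradiated cells. Of 40 measured members of a list of 50, 36 were higher and none lower, where 9.5% and 13.3% of all genes were higher and lower, and their median log2 ratio was 1.88. Without the mixed barcodes 32 of 40 were higher and none lower, where 7.4% and 8.18% of all genes were higher and lower, and the median was 1.48. Cell by cell, the list took up 43.4, 87.0 and 391 UMIs per 10000 in the lowest, median and highest irradiated cell, against 7.81, 38.9 and 189 in control cells. All 22 irradiated cells lay above the control median and 4 lay above the highest control cell, so the ranges overlapped. Without the mixed barcodes the control median was 41.6 per 10000. In the fibroblast, keratinocyte and T cell markers that differ between the libraries no irradiated cell exceeded 8 UMIs, and their part in this difference was not tested.

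**Figure D3:**
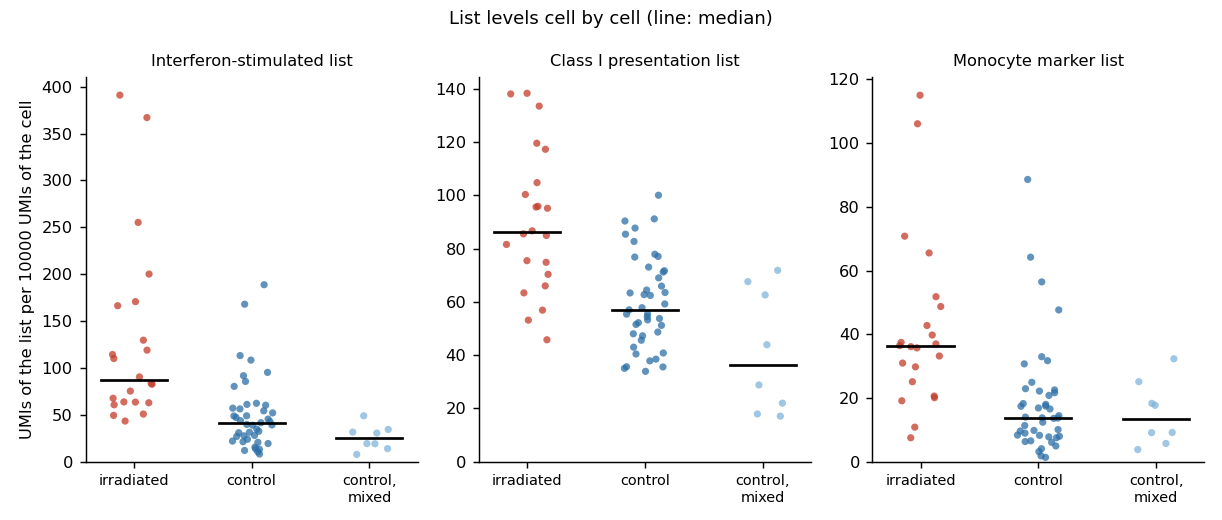
UMIs of the interferon-stimulated, class I presentation and monocyte marker lists per 10000 UMIs of a cell (y axes), 1 point per cell, with irradiated cells on the left and control cells and mixed control barcodes on the right. Lines are medians, and the irradiated medians of 87.0, 86.1 and 36.3 stand above the control ones.

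Isg15, a ubiquitin-like protein attached to other proteins under interferon, had 109 UMIs in 18 of 22 irradiated cells, against 48 UMIs in 19 of 51 control cells. Its level was 472 CPM in irradiated and 83.4 CPM in control members, a log2 ratio of 2.50 (2.00 to 3.02), or 1.88 (1.37 to 2.41) without the mixed barcodes. Ifit3, which belongs to a family that binds foreign RNA, had 54 UMIs in 9 irradiated cells, of which 26 lay in 1 cell, against 10 UMIs in 6 control cells. Its levels of 234 CPM in irradiated and 17.4 CPM in control members give a ratio of 3.75 (2.76 to 4.89), or 3.39 without the mixed barcodes. Both genes were seen in a larger share of irradiated than of control cells. After thinning each cell to 3000 UMIs, 54.5% of irradiated and 24.0% of control members had an Isg15 UMI, a ratio of 1.18 (-0.10 to 2.47). At the cells' own depths, medians of 9873 and 8922 UMIs, the shares were 81.8% and 37.3%. In keratinocytes thinned alike, which make Isg15 themselves, they were 9.92% in the irradiated and 1.18% in the control library.

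The neighbouring Ifi200 genes of chromosome 1, which encode sensors of DNA and their relatives, were higher together. Ifi211 had 69 UMIs in 13 irradiated cells against 18 UMIs in 9 control cells, a ratio of 3.26 (2.49 to 4.09). Ifi204 had 78 UMIs in 14 irradiated cells against 21 UMIs in 15 control cells, a ratio of 3.21 (2.50 to 3.98). Ifi205, Ifi203 and Mndal had ratios of 3.20, 2.35 and 2.25. These genes are close relatives in sequence, and how reads that match several of them were divided is not known, so their single values are uncertain. The 5 ratios lay between 1.78 and 3.04 without the mixed barcodes.

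Other antiviral genes of the list followed. Trim30a, a regulator of innate signalling, stood at 407 CPM in irradiated and 86.9 CPM in control members (2.23, 1.72 to 2.75), and Parp14, an ADP-ribosyltransferase, at 381 and 83.4 CPM (2.19, 1.67 to 2.73). Chosen after their values were seen, Rsad2, the antiviral enzyme viperin, had 42 UMIs in 10 irradiated cells and 4 UMIs in 4 control cells, and Usp18, which removes Isg15 from proteins, had 22 UMIs in 6 irradiated cells and 1 UMI in 1 control cell. Irf7, the factor that amplifies interferon production, likewise chosen after, had 41 UMIs in 16 irradiated and 22 UMIs in 14 control cells (2.22, 1.44 to 3.03). Stat2, Oas2 and Herc6 were among the members not past the rule, and Stat2 had 26 and 40 UMIs in irradiated and control members (0.70, -0.07 to 1.45). The most abundant, Ifitm3, which hinders viral entry, stood at 3831 CPM in irradiated and 1569 CPM in control members (1.29, 1.15 to 1.42), and at 0.97 without the mixed barcodes.

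**Figure D4:**
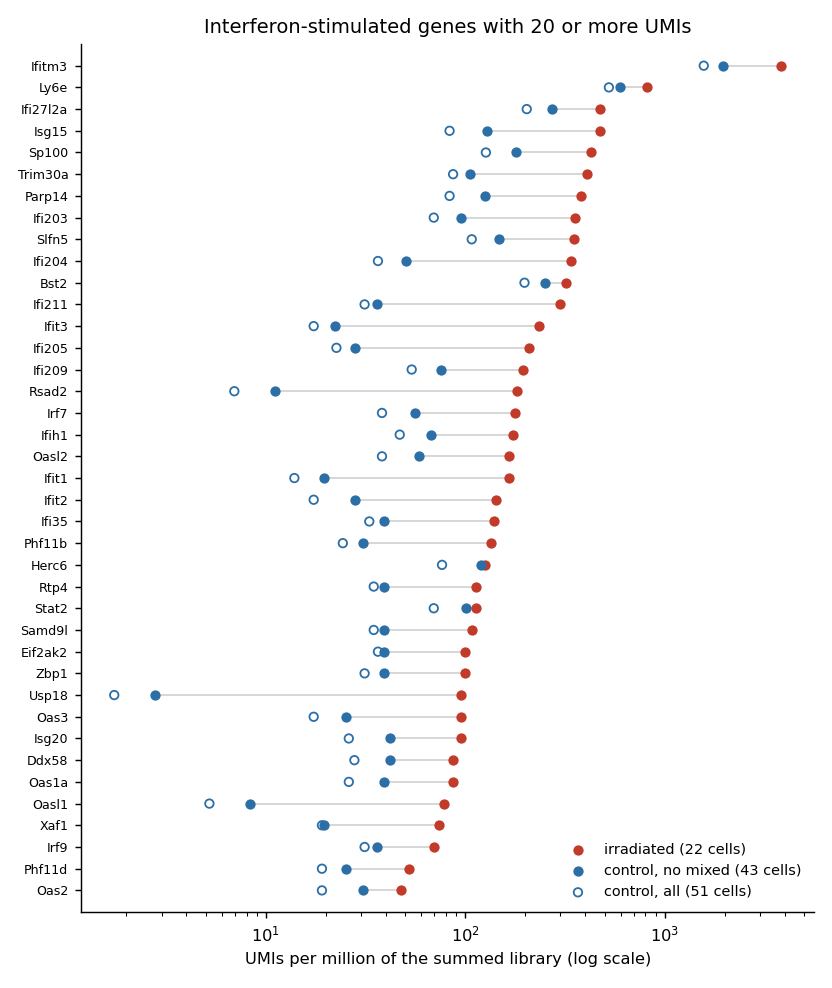
Levels of measured interferon-stimulated genes in CPM (x axis, log scale) in irradiated members (red), control members without the mixed barcodes (filled blue) and all control members (open blue), 1 gene per row. The red point lies to the right in every row, and for Herc6 and Stat2 it lies close to the filled blue one.

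The promoters of 4 named genes are printed because each holds the letters GAAA, any 2 bases and GAAA again, the core of the response element through which interferon signalling acts. Sequences run 5′ to 3′ on the gene's strand from 250 bases before to 50 after the start, from RefSeq on GRCm38.p6. Capitals mark the letters on either strand (TTTC, any 2 bases and TTTC for a match on the opposite strand), and where matches overlap the capitals run together. The windows are chr5:92348840-92349139 on the minus strand for Cxcl10, chr19:34583279-34583578 on the plus strand for Ifit3, chr4:156200769-156201068 on the minus strand for Isg15 and chr1:173912997-173913296 on the minus strand for Ifi211.
Cxcl10: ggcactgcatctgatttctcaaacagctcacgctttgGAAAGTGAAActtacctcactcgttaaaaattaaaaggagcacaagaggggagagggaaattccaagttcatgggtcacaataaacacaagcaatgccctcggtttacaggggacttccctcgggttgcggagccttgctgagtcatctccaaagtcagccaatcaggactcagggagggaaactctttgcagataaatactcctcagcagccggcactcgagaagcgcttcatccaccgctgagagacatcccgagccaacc
Ifit3: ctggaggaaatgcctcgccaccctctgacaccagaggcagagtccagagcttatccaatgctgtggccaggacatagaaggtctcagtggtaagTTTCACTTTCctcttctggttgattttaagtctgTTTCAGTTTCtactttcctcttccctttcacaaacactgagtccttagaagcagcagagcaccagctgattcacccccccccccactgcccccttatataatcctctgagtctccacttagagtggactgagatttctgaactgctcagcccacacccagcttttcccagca
Isg15: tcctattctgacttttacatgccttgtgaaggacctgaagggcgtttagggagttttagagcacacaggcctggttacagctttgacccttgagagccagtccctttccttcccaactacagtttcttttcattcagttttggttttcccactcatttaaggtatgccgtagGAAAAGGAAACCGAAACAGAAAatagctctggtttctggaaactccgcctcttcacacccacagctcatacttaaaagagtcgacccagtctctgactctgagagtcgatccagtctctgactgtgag
Ifi211: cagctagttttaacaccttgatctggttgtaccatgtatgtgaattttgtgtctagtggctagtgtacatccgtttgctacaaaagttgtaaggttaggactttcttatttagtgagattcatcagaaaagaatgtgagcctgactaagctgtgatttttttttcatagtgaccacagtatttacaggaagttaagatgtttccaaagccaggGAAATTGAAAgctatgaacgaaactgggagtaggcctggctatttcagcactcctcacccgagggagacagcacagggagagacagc

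The matches began 213 bases before the start in Cxcl10, 156 and 122 bases before it in Ifit3, 78, 72 and 66 bases before it in Isg15, where neighbouring matches overlap, and 37 bases before it in Ifi211. Of 37 interferon-stimulated genes with a promoter in the table, 21 (56.8%) held these letters, against 3.99% of all 27025 genes with a promoter there and 3.44% of all 32851 promoters. Of 14 genes of the interferon-gamma list 11 (78.6%) held them, and of 19 class I presentation genes 6 (31.6%). The letters TTC, any 3 bases and GAA, to which STAT proteins bind, were in 7 of the 37 interferon-stimulated genes (18.9%), 7 of the 14 interferon-gamma genes and 1 of the 19 class I genes (5.26%), against 9.55% of all genes and 8.30% of all promoters. A match of letters is a description and shows no binding in these cells.

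Genes induced by interferon-gamma were captured more thinly, and single cells carried much of their sum. Of 8 measured members of this list 5 were higher and none lower (median 1.61), where 9.5% of all genes were higher and 13.3% lower. Without the mixed barcodes 4 of 7 were higher and none lower (median 1.96), where 7.4% of all genes were higher and 8.18% lower. Cxcl10, the chemokine that draws CXCR3+ T cells, had 107 UMIs in 5 irradiated cells, of which 76 and 24 lay in a pair of cells. Those were the 2 cells with the highest interferon-stimulated share among irradiated members. In the control it had 2 UMIs, both in the deepest mixed barcode, which gives a ratio of 7.06 (5.17 to 10.12). With the top cell of each library left out the control had 0 UMIs, and the ratio was at least 4.58 with 3 UMIs set in their place. Against the 43 remaining control cells, with 0 UMIs, its level was at least 55.4-fold higher on a floor of 3 UMIs over the group. Gbp2, an interferon-induced GTPase chosen after its values were seen, had 35 UMIs in 6 irradiated and 5 UMIs in 5 control cells (4.13, 2.77 to 5.84).

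Class I presentation genes were higher as well, by less. Of 19 measured members 15 were higher and none lower (median 0.82), where 9.5% of all genes were higher and 13.3% lower. Without the mixed barcodes 8 of 19 were higher and none lower (median 0.56), where 7.4% of all genes were higher and 8.18% lower. B2m, the invariant chain of class I molecules, stood at 1838 CPM in irradiated and 902 CPM in control members (1.03, 0.84 to 1.22), or 0.85 (0.64 to 1.05) without the mixed barcodes. H2-T23, a non-classical class I chain, stood at 351 and 125 CPM in irradiated and control members (1.49, 1.01 to 1.97), and its relative H2-T22 at 121 and 41.7 CPM (1.54, 0.70 to 2.39). Both remained higher without the mixed barcodes, at 1.14 and 1.20. Per cell the list took up 45.8, 86.1 and 138 UMIs per 10000 in the lowest, median and highest irradiated cell, against 17.1, 55.5 and 100.1 in control cells. Of the 22 irradiated cells 7 lay above every control cell. The classical chains H2-K1 (0.65) and H2-D1 (0.79), named after their values were seen, were past the rule only with the mixed barcodes, at 0.32 and 0.51 without them. Class I genes are so alike in sequence that reads may be divided between them.

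Class II genes showed no such difference. Of 13 measured members 2 were higher and 1 lower (median 0.29), where 9.5% of all genes were higher and 13.3% lower. Without the mixed barcodes none was higher and 1 lower (median -0.12), where 7.4% of all genes were higher and 8.18% lower. The higher ones were Cd83, a surface protein that stabilises class II on mature cells (1005 and 594 CPM in irradiated and control members, 0.76), and H2-DMb1, a chain of the editor of class II peptides (828 and 546 CPM, 0.60). Both were within the rule without the mixed barcodes, at 0.33 and 0.26. March1, a ubiquitin ligase that removes class II from the surface, was the lower one, with 4 UMIs in irradiated and 29 in control members (-1.54), and -2.06 without the mixed barcodes. H2-Eb1, a class II chain that the rule for members did not read, stood at 7025 CPM in irradiated and 7112 CPM in control members, with the mixed barcodes counted. The class II list summed to 13279 CPM in irradiated members, against 11814 CPM in all control members and 15996 CPM without the mixed barcodes. The direction of the sum thus depended on the mixed barcodes.

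Genes of the type 2 identity list went in both directions. Of 16 measured, 5 were higher and 3 lower (median 0.37), where 9.5% of all genes were higher and 13.3% lower. The list includes Cd209a, Flt3 and Zbtb46, which the rule for members read, and Zbtb46 is among the higher ones. Its counts and medians are therefore partly a description of the gate. Without the mixed barcodes 2 of 15 were higher and 3 lower (median 0.01), where 7.4% of all genes were higher and 8.18% lower. Of the lectins Mgl2 was lower, and stood at 130 CPM in irradiated and 257 CPM in control members (-0.98, -1.60 to -0.41), and at -1.48 (-2.10 to -0.90) without the mixed barcodes. Its 30 irradiated UMIs lay in 4 cells, with 12 UMIs in the highest, while 18 irradiated and 30 control members had none. The highest control cell held 34 of the 148 control UMIs. An Mgl2 UMI was seen in 18.2% of irradiated and 41.2% of control members, a ratio of -1.18 (-3.18 to 0.39). With the cells thinned, the shares were 18.2% and 28%, a ratio of -0.62 (-2.68 to 1.05). Both intervals include equality, so the lower level was not shown as a smaller share of cells. Clec10a stood at 282 CPM in irradiated and 380 CPM in control members (-0.43, -0.86 to -0.03), within the rule. Against 524 CPM without the mixed barcodes it was lower (-0.90, -1.33 to -0.48). With the cells thinned, 50% of irradiated and 58% of all control members had a Clec10a UMI. That ratio of -0.21 (-1.36 to 0.83) includes equality too. Klf4, a transcription factor needed for some type 2 cells, stood at 299 and 474 CPM in irradiated and control members (-0.67, -1.07 to -0.28), and at -0.74 without the mixed barcodes.

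In the other direction, Tnip3, an inhibitor of NF-kappaB signalling, stood at 399 CPM in irradiated and 144 CPM in control members (1.47, 1.02 to 1.91), and at 0.89 (0.44 to 1.35) without the mixed barcodes. Notch2, the receptor that guides the differentiation of type 2 cells, stood at 225 and 111 CPM in irradiated and control members (1.02), and at 0.61 (0.03 to 1.19) without the mixed barcodes. Cd7 (0.78), Zbtb46 (0.79) and Ltb, lymphotoxin beta (1.44), were higher with the mixed barcodes and within the rule without them. Sirpa, Itgam, Itgax, Csf1r, Napsa and Flt3 were within the rule both ways. Epcam, an adhesion molecule also found on Langerhans cells, had 0 UMIs in irradiated and 20 in control members, at least 2.67-fold lower on the floor of 3 UMIs over the group.

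Among regulators of the dendritic lineage 4 of 20 measured were higher and 3 lower (median 0.22), where 9.5% of all genes were higher and 13.3% lower. Zbtb46, which the rule for members read, is counted among the higher ones. Without the mixed barcodes 1 of 19 was higher and 4 lower (median -0.19), where 7.4% of all genes were higher and 8.18% lower. Irf8 had 5 UMIs in 4 irradiated cells, against 53 UMIs in 11 control cells (-2.09, -3.77 to -0.77). Without the mixed barcodes the ratio was -2.00, and with Clec10a and Mgl2 in place of Cd209a in the gate it turned round to 1.70. A few barcodes carried the control sum. Of its 53 UMIs 17 lay in 1 mixed barcode, and 14 and 10 in 2 cells that also held 13 and 11 UMIs of Siglech, a receptor of plasmacytoid dendritic cells. The class II genes of these 2 cells, at 96.7 and 83.9 UMIs per 10000, were not far above the limit of 50. Leaving out these 2 and the mixed barcodes, Irf8 stood at 21.7 CPM in irradiated and 20.3 CPM in the 41 remaining control members, with 5 and 7 UMIs. Siglech had no UMI in any irradiated member. Zeb2, a repressor that favours type 2 and plasmacytoid fates, stood at 1361 and 763 CPM in irradiated and control members (0.84), and at 0.38 without the mixed barcodes. The list of plasmacytoid markers summed to 490 CPM in irradiated and 1468 CPM in control members, or 898 CPM without the mixed barcodes. Ly6d made up 780 CPM of the sum over all control members, with 375 of its 449 UMIs in 1 mixed barcode. Without the mixed barcodes it stood at 80.9 CPM in the control, against 17.3 CPM in irradiated members. Of 4 measured members of the list 3 were lower both ways. The sum is no measure of plasmacytoid cells, and the part of such cells in the Irf8 value was not tested.

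C-type lectins, which bind sugars of microbes and dying cells, were higher in 3 and lower in 2 of 14 (median 0.02), where 9.5% of all genes were higher and 13.3% lower. Without the mixed barcodes they were higher in 1 and lower in 5 (median -0.30), where 7.4% of all genes were higher and 8.18% lower. Clec4n, the fungal receptor dectin-2, had 15 UMIs in irradiated and 80 in control members (-1.10, -2.00 to -0.29), and -1.52 without the mixed barcodes. Clec2d, a ligand of an inhibitory receptor on NK cells, had 34 UMIs in 15 irradiated and 33 UMIs in 16 control cells (1.36, 0.63 to 2.10), and 1.92 without the mixed barcodes. Fc receptors split too. The activating high-affinity receptor Fcgr1 had 28 UMIs in irradiated and 25 in control members (1.48, 0.65 to 2.32), and the inhibitory Fcgr2b had 18 and 81 (-0.85, -1.68 to -0.10), and Fcgr1 remained higher (1.20) and Fcgr2b lower without the mixed barcodes.

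Markers of monocytes, from which dendritic-like cells can also arise in inflamed tissue, were mostly higher in irradiated members. Of 9 measured 6 were higher and 2 lower (median 1.47), where 9.5% of all genes were higher and 13.3% lower. Without the mixed barcodes 6 of 8 were higher and none lower (median 1.11), where 7.4% of all genes were higher and 8.18% lower. Their sum was 3862 CPM in irradiated and 1664 CPM in control members, or 1880 CPM without the mixed barcodes. Per cell they took up 7.52, 36.3 and 115 UMIs per 10000 in the lowest, median and highest irradiated cell, against 1.37, 13.8 and 88.6 in control cells. Of 22 irradiated cells 20 lay above the control median and 2 above the highest control cell.

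Plac8, a small cysteine-rich protein abundant in monocytes, stood at 1452 CPM in irradiated and 453 CPM in control members (1.68, 1.44 to 1.92), and at 1.17 (0.92 to 1.41) without the mixed barcodes. It was seen in 21 of 22 irradiated and 31 of 51 control cells. Ms4a4c, a tetraspan membrane protein, stood at 754 and 273 CPM in irradiated and control members (1.47), Ifitm6 at 260 and 88.6 CPM (1.55) and Cd14, the co-receptor for lipopolysaccharide, at 650 and 221 CPM (1.56). They stood at 0.95, 1.05 and 1.49 without the mixed barcodes. Ly6c2, which marks inflammatory monocytes, had 24 UMIs in 10 irradiated and 25 UMIs in 8 control cells (1.26, 0.39 to 2.13), and was within the rule without the mixed barcodes (0.64). Ccr2, the receptor by which monocytes leave the blood, was within the rule both ways (0.34 and 0.18). The 2 list members that were lower with the mixed barcodes are not among the genes named here.

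Monocyte and interferon transcripts could not be separated by leaving cells out. Dropping cells with 2 or more UMIs of Ly6c2 and Plac8 left only 2 irradiated and 25 control cells. In these, 4 of 8 measured interferon-stimulated genes were higher and none lower (median 1.72). Of all 2269 genes tested there, 188 were higher and 110 lower. The part of monocyte-derived cells in the differences was not tested. Macrophage markers summed to 533 CPM in irradiated and 674 CPM in control members (547 CPM without the mixed barcodes), and neutrophil markers to 828 and 759 CPM (1041 CPM without the mixed barcodes). Most of the neutrophil sum was Il1r2, a gene also on the Langerhans list. It stood at 767 CPM in irradiated and 693 CPM in control members, or 951 CPM without the mixed barcodes. Without those barcodes it was the only neutrophil marker measured.

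Of chemokines 5 of 10 measured were higher and 1 lower (median 1.00), where 9.5% of all genes were higher and 13.3% lower. Without the mixed barcodes 5 of 7 were higher and none lower (median 1.17), where 7.4% of all genes were higher and 8.18% lower. For Cxcl10, described above, and for 2 others 1 irradiated cell held most UMIs. Ccl4, a chemokine that draws T cells and monocytes, had 157 UMIs in 11 irradiated cells, 106 of them in 1 cell, against 92 UMIs in 14 control cells (2.09), and with the top cell of each library left out the ratio was 1.17. Cxcl2, which attracts neutrophils, had 77 UMIs in 8 irradiated cells, 67 of them in 1 cell, against 29 UMIs in 10 control cells (2.73), and 0.88 without the top cells. With the gate read after thinning, which left 8 irradiated and 18 control cells, both turned round, Ccl4 to -2.69 and Cxcl2 to -1.32. Ccl6, a chemokine of myeloid cells, was spread more evenly, with 90 UMIs in 15 irradiated and 67 UMIs in 22 control cells (1.74, 1.27 to 2.22), and 1.17 without the mixed barcodes.

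Receptors for chemokines and adhesion were higher in 6 of 15 and lower in none (median 0.50), where 9.5% of all genes were higher and 13.3% lower. Without the mixed barcodes they were higher in 5 and lower in 2 of 14 (median 0.25), where 7.4% of all genes were higher and 8.18% lower. Ccrl2, which presents chemerin to other cells, had 46 UMIs in irradiated and 22 in control members (2.38, 1.62 to 3.19), and 1.70 without the mixed barcodes. The integrin chains Itga4 (1.62), Itgb2 (1.14) and Itgb7 (1.04), by which leukocytes bind vessel walls, were higher, at 1.22, 0.70 and 0.73 without the mixed barcodes. Receptors for growth factors and cytokines were higher in 3 and lower in 3 of 23 (median 0.32), and without the mixed barcodes higher in none and lower in 2 of 21 (median 0.08). Il1rap, a chain shared by receptors of the interleukin 1 family, had 16 UMIs in irradiated and 86 in control members (-1.11), and Tgfbr2, the receptor for TGF-beta, had 7 and 48 (-1.46). Both stayed lower without the mixed barcodes, at -1.57 and -1.42.

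Costimulators and checkpoints were higher in 5 and lower in 2 of 20 (median 0.46), where 9.5% of all genes were higher and 13.3% lower. Without the mixed barcodes they were higher in 2 and lower in 3 (median 0.07), where 7.4% of all genes were higher and 8.18% lower. Tnfsf9, the ligand 4-1BBL that costimulates T cells, stood at 221 CPM in irradiated and 108 CPM in control members (1.04, 0.47 to 1.60), and at 0.78 without the mixed barcodes. Havcr2, the inhibitory receptor TIM-3, stood at 47.7 and 111 CPM in irradiated and control members (-1.22, -2.29 to -0.29), and at -1.55. Cd274, the inhibitory ligand PD-L1, was higher with the mixed barcodes (0.84) and within the rule without them (0.35). Cd86, a main costimulator named after its values were seen, stood at 1110 and 1048 CPM in irradiated and control members (0.08), with the mixed barcodes counted.

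Cd40, the receptor through which T cells license dendritic cells, was seen in more irradiated cells. After thinning to 3000 UMIs 31.8% of irradiated members (13.9 to 54.9) and 6.00% of control members (1.25 to 16.5) had a Cd40 UMI, a ratio of 2.41 (0.28 to 4.99), against 0 of 837 irradiated and 0 of 1436 control keratinocytes, which allows up to 0.440% and 0.257%. At the cells' own depths the shares were 63.6% and 19.6%. Its level was 104 CPM in irradiated and 31.3 CPM in control members (1.73, 0.79 to 2.70), and 1.13 without the mixed barcodes. Tnfsf4, the ligand OX40L, chosen after its values were seen, went the other way, with 2 UMIs in 2 irradiated and 37 UMIs in 16 control cells (-2.89, -5.99 to -0.94).

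The list of maturation and migration genes had no common direction, with 6 higher and 2 lower of 21 (median 0.32), and 2 higher and 3 lower of 20 (median -0.12) without the mixed barcodes. For this list and those that follow, 9.5% of all genes were higher and 13.3% lower, and 7.4% and 8.18% without the mixed barcodes. Cytokines were higher in 2 and lower in 3 of 9, and without the mixed barcodes higher in 1 and lower in 2 of 8. Il1b, the abundant inflammatory cytokine, named after its values were seen, stood at 1911 CPM in irradiated and 1776 CPM in control members (0.11), with the mixed barcodes counted. Tgfb1 stood at 329 and 189 CPM in irradiated and control members (0.80), and within the rule at 0.58 without the mixed barcodes. Igf1 had 0 UMIs in irradiated and 95 in control members, but 88 of these lay in 1 mixed barcode. Pattern recognition receptors were higher in 5 of 11 and lower in none, and without the mixed barcodes higher in 3 and lower in 1 of 9. Ly86, the partner of the lipopolysaccharide sensor RP105, stood at 299 and 99.0 CPM in irradiated and control members (1.59, 1.07 to 2.13), and at 1.10 without the mixed barcodes. Of interferon receptors and sensors 4 of 11 were higher and none lower (median -0.02), among them Irf5 (1.47) and the DNA sensor Aim2 (1.43), at 0.96 and 0.92 without the mixed barcodes. With those left out 3 of 10 were higher and 1 lower (median -0.01).

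Immediate early genes were more often lower than higher in irradiated members, and most were within the rule. Of 25 measured immediate early genes, which cells turn on within minutes and which tissue digestion can also turn on, 3 were higher and 8 lower (median -0.16), where 9.5% of all genes were higher and 13.3% lower. Without the mixed barcodes 1 was higher and 5 lower of 23 (median -0.26), where 7.4% of all genes were higher and 8.18% lower. The genes named next are lower ones, and the 3 higher ones are not named. The heat shock gene Hspa1a had 9 UMIs in 4 irradiated cells, against 141 UMIs in 19 control cells (-2.65, -3.81 to -1.69), and Hspa1b, its near-identical copy, had 5 UMIs in 3 irradiated and 103 UMIs in 17 control cells (-3.05, -4.70 to -1.78). Reads may be divided between these 2 genes. Atf3, a stress-induced repressor, had 16 UMIs in 5 irradiated and 117 UMIs in 24 control cells (-1.55, -2.41 to -0.79). With the mixed barcodes left out the 3 ratios were -2.73, -2.80 and -1.92. Klf2, a factor of quiescence, had 10 and 55 UMIs in irradiated and control members (-1.14).

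Targets of p53, the factor that answers DNA damage, had no common direction. Of 10 measured none was higher and 1 lower (median -0.08), where 9.5% of all genes were higher and 13.3% lower. Without the mixed barcodes none of 6 was higher and 1 lower (median 0.07), where 7.4% of all genes were higher and 8.18% lower. Perp was the lower one with the mixed barcodes, of which 1 held 135 of its 158 control UMIs, and Cd80 the lower one without them. Cdkn1a, which encodes p21 and halts the cell cycle, stood at 594 CPM in irradiated and 433 CPM in control members (0.46, 0.15 to 0.76), in 21 of 22 irradiated and 45 of 51 control cells, and at 0.23 without the mixed barcodes. In keratinocytes of the same libraries, a population gated for comparison, 18 of 34 such targets were higher, with none lower (median 0.80), where 6.68% of all 15699 genes were higher and 11% lower. Only 10 of the 34 listed targets reached 20 UMIs in the type 2 cells, so most could not be judged there.

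Mitosis transcripts were sparse. Of 10 measured genes 4 were lower and none higher (median -1.19), where 13.3% of all genes were lower and 9.5% higher. But a pair of mixed barcodes held 304 and 162 of these UMIs, and without the mixed barcodes only Cenpa, a centromere histone, was measurable on both sides (-0.49, -1.13 to 0.12). The list then summed to 455 CPM in irradiated and 282 CPM in control members, against 1022 CPM in all control members, and 1 irradiated cell held 70 of the 105 irradiated UMIs. After thinning, 13.6% of irradiated members (3 of 22) and 30.0% of control members (15 of 50) had 2 or more mitosis UMIs, a ratio of -1.14 (-3.57 to 0.68), and the control share was 26.2% without the mixed barcodes. At the cells' own depths the shares were 54.5% and 58.8%. In keratinocytes, which divide, they were 24.3% and 40.3% after thinning. A difference was not detectable at this number of cells. For the lists that follow, the shares of all genes are those above, and 7.4% higher and 8.18% lower without the mixed barcodes. Regulators of cell death were higher in 2 and lower in 1 of 17, and without the mixed barcodes higher in 1 and lower in 1 of 15, led by Bcl2l11, the death inducer BIM, at 446 CPM in irradiated and 141 CPM in control members (1.67, 1.23 to 2.10), and at 1.57 without the mixed barcodes. Genes of lipids and lysosomes were higher in 2 and lower in 9 of 21, and without the mixed barcodes higher in none and lower in 3 of 19. Genes of the S100 family and of glycolysis were higher in 1 and lower in 2 of 17, and without the mixed barcodes higher in 1 and lower in none of 16, with S100a10, a partner of annexin, at 0.79, and at 0.82 without the mixed barcodes.

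The interferon and class I differences were present in the neighbours too, so they are not particular to type 2 cells. Interferon-stimulated genes were higher in 23 of 26 measured in type 1 cells (median 1.57), where 13.2% of all genes were higher, in 36 of 44 in mature cells (median 1.40), where 8.74% were, and in 46 of 47 in class II macrophages (median 1.26), where 5.77% were. None was lower in any of these 3 populations, where 8.33%, 11.3% and 10.5% of all genes were lower. Class I genes were higher in 6 of 19, 12 of 22 and 16 of 22 in the same order. Monocyte markers were higher in 5 and lower in 2 of 8 in type 1 cells (median 1.20), higher in 7 and lower in 2 of 11 in mature cells (median 1.31) and higher in 5 and lower in 1 of 12 in class II macrophages (median 0.39). Isg15 stood at 295 CPM in irradiated and 133 CPM in control type 1 cells, at 746 and 199 CPM in mature cells and at 573 and 152 CPM in class II macrophages. Plac8 stood at 1529 and 644 CPM, 1295 and 424 CPM, and 826 and 245 CPM in the irradiated and control library of these populations. The difference between populations in any of these ratios was not tested, since each rests on 1 library per group.

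Chemokine and stress genes had other medians in the neighbours, where the shares of all genes higher and lower are those given above. Chemokines were higher in 1 and lower in 2 of 4 in type 1 cells (median -0.88), higher in 5 and lower in 3 of 15 in mature cells (median -0.09) and higher in 10 and lower in 4 of 20 in class II macrophages (median 0.68). Immediate early genes had medians of 0.29, 0.35 and 0.15 there, and -0.16 in the type 2 cells.

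**Figure D5:**
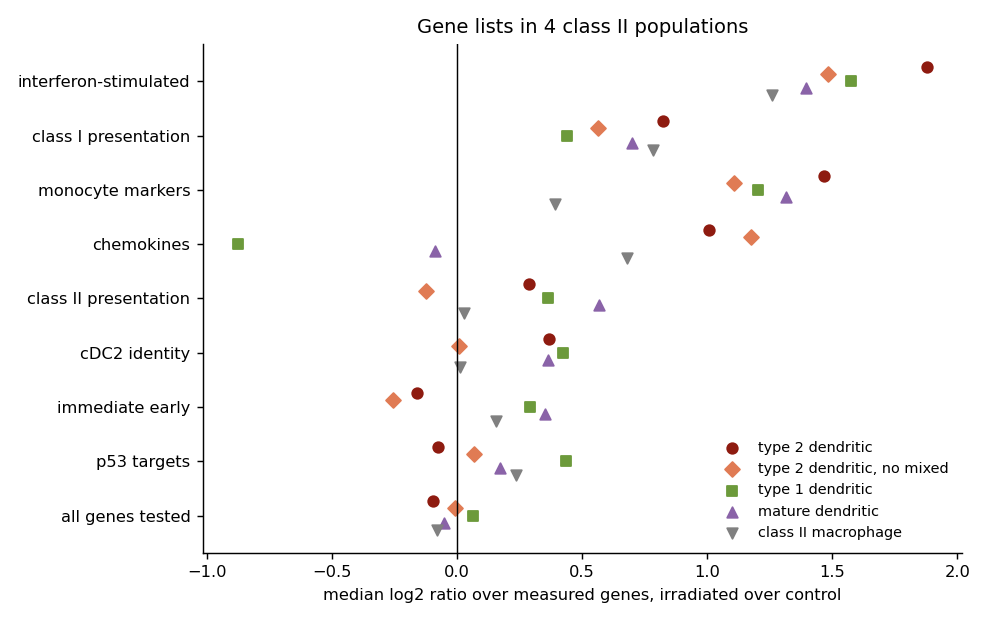
Median log2 ratio of irradiated over control (x axis) of 8 gene lists and of all genes tested (rows) in type 2 dendritic cells with and without the mixed barcodes, type 1 dendritic cells, mature dendritic cells and class II macrophages, 1 symbol per population. The interferon-stimulated medians lie between 1.26 and 1.88 in the 5 sets, while those of all genes lie between -0.10 and 0.06.

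Genes with at least 100 UMIs were ranked by the interval bound nearest to equality, which covers counting error only. The 12 highest were Cxcl10, Cxcl2, Isg15, Ifi203, Trim30a, Mndal, Ccl4, Parp14, Zfp710, Slfn2, Samhd1 and Plac8. For Cxcl10, Cxcl2 and Ccl4, 1 irradiated cell held most of the irradiated UMIs, with 76 of 107, 67 of 77 and 106 of 157. With the gate read after thinning Cxcl2 and Ccl4 turned round, to -1.32 and -2.69. Samhd1, which degrades the nucleotides that viruses need, stood at 741 CPM in irradiated and 208 CPM in control members (1.83, 1.49 to 2.18). Slfn2, a Schlafen gene of immune cells, stood at 468 and 120 CPM (1.97, 1.52 to 2.42), and Zfp710, a zinc finger gene, at 316 and 72.97 CPM (2.12, 1.55 to 2.70). These 3 stood at 1.48, 1.51 and 1.62 without the mixed barcodes. The 12 lowest by the same ranking were Mgp, Postn, Krt14, Col3a1, Fabp5, Col1a2, Sparc, Ebf1, Ptn, Ly6d, Fabp4 and Krt6a, genes mostly of matrix, skin and fat. For each of them 1 control barcode held most of the UMIs, such as 1058 of 1383 for Krt14 and 530 of 696 for Col3a1. Of these, Fabp5 was still seen in 17 irradiated and 41 control cells without the mixed barcodes, with 38 and 153 UMIs (-1.37, -1.93 to -0.85). Without the mixed barcodes the 12 lowest were instead Rabgap1l, Hspa1a, Basp1, Glis3, Igf1r, Atf3, Rabgef1, Arhgap24, Mgl2, Fabp5, Nr4a3 and Map4k4. Basp1, a membrane-bound signalling protein, had 66 UMIs in 12 irradiated and 413 UMIs in 35 of those 43 control cells (-2.01, -2.41 to -1.63). Rabgap1l, a regulator of vesicle traffic, had 8 UMIs in 4 irradiated and 98 UMIs in 18 control cells, 64 of them in 1 cell (-2.98).

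Cells just inside and just outside the gate are given as a description. Exactly 2 Cd209a UMIs were held by 5 irradiated and 7 control members, and 3 or more by 17 and 44. Exactly 1 UMI was held by 10 irradiated and 10 control cells that met every other criterion. Clec10a stood at 340 and 440 CPM in irradiated and control cells with exactly 2 Cd209a UMIs, and at 229 and 311 CPM in those with exactly 1. Of cells failing 1 criterion alone, 6 irradiated and 20 control cells had no UMI of Flt3 or Zbtb46, 2 and 4 fell below the class II limit, 3 and 0 held Xcr1 or Clec9a, 9 and 7 held Ccr7, and 0 and 2 held C1qa and C1qb. A further 92 irradiated and 91 control cells met every criterion but had no Cd209a UMI.

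Counting those with 1 UMI too, 102 irradiated and 101 control barcodes failed on Cd209a alone. They held little Mgl2, at 17.0 CPM in irradiated and 10.9 CPM in control cells, and more Irf8 than the members, at 294 and 159 CPM. Siglech, of plasmacytoid cells, stood at 120 CPM in irradiated and 99.5 CPM in control cells, and Ly6c2 at 335 and 85.3 CPM. Of 45 interferon-stimulated genes measured in these barcodes 40 were higher and none lower (median 1.46), where 6.87% of 8060 genes were higher and 9.28% lower. Class I genes were higher in 11 of 21 (median 0.59) and lower in none, and chemokines were higher in 9 and lower in 1 of 14 (median 1.18). Monocyte markers were higher in 3 and lower in 2 of 12 (median 0.15), against 6 higher and 2 lower of 9 in the members, a difference that was not tested. Neutrophil markers were higher in 7 of 9 with none lower (median 2.53).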

How the data were processed

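Droplet-based single-cell RNA-seq of unsorted cells was analysed in 1 irradiated and 1 control library. The authors deposited unnormalised counts of UMIs for each gene in each barcode. Cell Ranger 5 and mm10 are named in the submitters' processing notes, and version 5.0.1 in the file headers. Further filters by the authors are not given in the sources used here. Every deposited barcode had at least 500 UMIs.

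Barcodes were filtered and gated as described above, and counts were summed per library with Python 3.11.15, numpy 2.4.6, scipy 1.17.1 and pandas 2.3.3. Cells are not replicates, so there are no p-values. The members and lists were chosen with earlier results of these data known. The 40 gene lists hold 674 genes, of which 663 are in the feature table. Doublets were not removed. Scrublet in scanpy 1.11.5 scored all kept barcodes, and those above 0.25 (156 irradiated, 515 control) were left out in an alternative.

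Named genes are those of the gate and of the identity list, up to 4 members per list past the size rule with the largest ratios and at least 50 UMIs, the 12 highest and 12 lowest genes with at least 100 UMIs seen in 10% of cells, and the 12 that most exceed the neighbours. Others are named as chosen after their values were seen. The rule for higher and lower genes was tested on simulated Poisson counts. These were drawn for whole groups, so they held no unevenness between cells. Thinning was checked on barcodes of the control library. Other settings were tried, 2 of them added after seeing the data. Promoters came from RefSeq by symbol. A single gene of the interferon-stimulated list is not reported here by name.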

Additional observations from a re-analysis of the deposited data

How the results depend on the processing

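No paired analysis was possible because each group has 1 library. Over 19 alternatives the median log2 ratio of the interferon-stimulated list lay between 1.44 and 1.94 (1.88 as reported), with no member lower in any setting that counted members, and that of class I genes between 0.56 and 0.90. The share of type 2 cells kept a negative ratio in all alternatives, -3.28 at its lowest and -0.54 at its highest. Rescaling by the median ratio or the trimmed mean of M values shifted all ratios by 0.06 or 0.07.

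Counts of genes higher and lower (522 and 731 as reported) were 313 and 346 without the mixed barcodes, 319 and 301 also without barcodes of 5 or more Siglech UMIs, 293 and 229 with the gate read after thinning (8 irradiated and 18 control cells), 142 and 134 in thinned sums, and 225 and 145 among genes with at least 100 UMIs. With Clec10a and Mgl2 in place of Cd209a 425 were lower. Without cells of 2 or more Ly6c2 and Plac8 UMIs (2 irradiated and 25 control cells), 188 were higher and 110 lower, the share ratio was -3.28 and the maturation list -0.89. There chemokines (-0.29), the type 1 marker list (0.75), Zbtb46 (-1.10), Mgl2 (0.077), Cd83 (-0.92), H2-DMb1 (-0.49), H2-T23 (-1.56), Ccl6 (-0.29), Lilrb4a (-0.10), Ly86 (-0.91), Tnfrsf1a (-0.16), Fcgr2b (0.32), Hif1a (0.027) and Wfdc17 (-0.43) reversed. With Clec10a and Mgl2 in the gate, the lists of type 1 (0.10), plasmacytoid (1.21) and B cell markers (2.90) and Irf8 (1.70), Clec4d (-0.18), Aim2 (-0.21), Nod2 (-0.13), Tgfbr2 (0.54) and Apoe (0.27) reversed. With the gate read after thinning, the B cell list (0.72), Clec4d (-0.62), Cxcl2 (-1.32), Ccl4 (-2.69) and S100a10 (-0.11) reversed. In thinned sums the interferon-gamma list, with 3 genes measured (-0.90), the type 1 list (0.51), Birc3 (-0.12) and Tgfb1 (-0.038) reversed. Marker lists of few measured genes also reversed, with Scrublet-scored cells left out (Langerhans 0.022, endothelial 0.54), at 3 or more Cd209a UMIs (neutrophil 0.22, and Cd7 at -0.28), with Flt3 alone (neutrophil 0.25, endothelial 0.80), at 100 UMIs (type 1 0.73, Langerhans 0.15, neutrophil 0.15), with no minimum (neutrophil 0.32, B cell 0.40), without the mixed barcodes (B cell 0.076, endothelial 0.37) and also without Siglech (0.37 and 0.32). The causes were not tested. The depth limits single genes: 22 irradiated cells with 230734 UMIs leave most listed genes of low level under 20 UMIs.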
